A study of Mus musculus with 2 samples.

Results

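The deposited array annotation contains 4255 transcript clusters that rest on an Ensembl record and carry no gene symbol, out of 33793 clusters of its main category. They were chosen from the annotation alone, as main clusters whose messenger RNA source was Ensembl and whose symbol field was empty. A transcript cluster is the array's unit of measurement, a set of probes laid over 1 annotated locus. By the annotated biotype the clusters comprised 1156 snoRNAs, 1101 snRNAs, 435 miscellaneous RNAs, 323 microRNAs, 154 ribosomal RNA loci and 43 lincRNAs. A further 1022 were gene models computed by GENSCAN from genomic sequence, which the annotation calls protein coding, and 21 belonged to other biotypes. Among those 21 were 4 immunoglobulin D segments and 1 J segment. RefSeq lists a gene at identical coordinates for 1746 of the 4255, and that symbol is used below where it exists.

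The series measured lung RNA of male C57BL/6 mice on 2 arrays, 1 from nonirradiated animals and 1 from irradiated animals. The irradiated mice received a single gamma-ray exposure of the thorax at 7 weeks of age, at 0.81 Gy per minute, and lungs of both groups were taken at the 25-week time point. The total dose and the number of mice behind each array are not given in the sources used here, and the submitters describe the irradiated lung as one with raised α-smooth muscle actin and fibrosis. With 1 array per group no difference below has a replicate check, no p-value can be given, and every statement compares these 2 arrays. Values are RMA signals on the log2 scale, and a difference is the irradiated minus the nonirradiated value. Counts use a limit of 1.5-fold, with 2-fold beside it.

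Small nuclear RNAs are the RNA components of the spliceosome, which removes introns from precursor messenger RNA. Small nucleolar RNAs guide chemical modification of ribosomal RNA, and in mammals most of them are cut out of the introns of longer host genes. Mammalian genomes also hold many decayed copies of small RNA genes, so that an annotated locus of either class need not be a working gene, and microRNAs arise from hairpins within longer transcripts. GENSCAN models are predictions from sequence composition and splice signals, and many lie over pseudogenes or over gene segments that conventional gene models describe differently.

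The reference tables hold the whole sequence of 6 of the 4255 loci. Of these, 3 loci annotated as microRNA on chromosome 13 are shown because they are near copies of one another and so illustrate how alike the loci can be that separate clusters stand for. They lie on the plus strand of GRCm38.p6 at chr13:62383237-62383344, chr13:62466865-62466971 and chr13:62624194-62624301, opposite the starts of the minus-strand genes Gm3604, Zfp935 and 6720489N17Rik. Sequences are from RefSeq promoter windows, written 5′ to 3′ on the strand of the cluster, and capitals mark the bases at which the 3 are not all alike.
ENSMUST00000178943: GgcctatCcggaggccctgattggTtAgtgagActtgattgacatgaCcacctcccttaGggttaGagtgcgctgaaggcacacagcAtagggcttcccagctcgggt
ENSMUST00000102291: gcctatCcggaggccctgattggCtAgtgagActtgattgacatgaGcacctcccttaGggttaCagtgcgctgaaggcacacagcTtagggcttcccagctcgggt
ENSMUST00000180156: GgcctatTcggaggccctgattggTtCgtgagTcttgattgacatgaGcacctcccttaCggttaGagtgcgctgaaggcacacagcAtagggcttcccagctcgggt
The first matched each of the others at 95.4% of aligned positions, and the others matched each other at 92.6%. ENSMUST00000178943 read 6.13 without and 6.09 with irradiation, a difference of -0.04. ENSMUST00000102291 read 5.44 and 5.66, a difference of 0.22, and ENSMUST00000180156 read 5.71 and 5.31, a difference of -0.40. The 3 near copies thus did not move in 1 direction, none reached 1.5-fold, and all carry the code for probes that can match more than 1 transcript.

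The other sequences belong to hairpins, and the mature microRNAs that the reference lists for these hairpins are shown. Clusters not lying wholly within a hairpin entry were not searched for mature products. Capitals mark the seed, bases 2 to 8, through which a microRNA pairs with its targets.
mmu-miR-3535: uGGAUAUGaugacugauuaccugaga
mmu-miR-3552: aGGCUGCAggcccacuucccu
mmu-miR-1911-5p: uGAGUACAgccaugucuguuggg
mmu-miR-1911-3p: cACCAGGCauuguggucucugc
The 4 seeds differ from one another. The hairpin Gm24627 at chrX:147106967-147107046, source of both miR-1911 arms, read 6.75 without and 6.46 with irradiation. Gm22650 at chrX:146999405-146999509, source of miR-3552, read 5.25 and 4.92. The snoRNA cluster ENSMUST00000082762 at chr1:86352008-86352087, which lies within the hairpin Gm24148 of miR-3535, read 4.71 and 4.67. All 3 were dim and lower in the irradiated array, none of them by 1.5-fold. The arrays read the whole locus and do not separate a hairpin from its mature arms.

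Over all 4255 clusters the irradiated array read somewhat higher. The median signal was 5.18 without and 5.26 with irradiation, the median difference was 0.08, and 57.3% of clusters had a difference above 0. At the 1.5-fold limit 405 were higher, 9.52% of the clusters against 3.21% of all main clusters, and 136 were lower, 3.20% against 1.5%. At 2-fold 96 were higher, where 0.648% of all main clusters were, and 28 were lower, where 0.216% were. Among the 29538 other main clusters 2.30% were higher and 1.26% lower at 1.5-fold, and their median difference was -0.01. The 8568 clusters drawn from NONCODE that also lack a symbol gave 1.90% and 1.04%, close to the 2.19% and 1.29% of clusters with 1 symbol.

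Most of these loci were dim. The array carries control rows over introns of its normalisation genes, whose median was 6.33 without and 6.58 with irradiation. Of the 4255 clusters 71.5% lay below that median in the nonirradiated array and 73.4% in the irradiated array. Against the median of the antigenomic background rows, which match no mouse sequence (4.77 and 4.59), 43.1% and 38.4% lay below. Brightness was set at the array's median over non-control clusters, 6.83 nonirradiated and 6.87 irradiated, and a cluster counted as bright if its larger value reached that level, which 1013 did. Of these, 129 were at least 1.5-fold higher (12.7%, against 2.62% of bright main clusters) and 34 lower (3.36%, against 1.24%). That rule admits clusters through 1 array only, and those can only be higher if the irradiated array admitted them. Of the 129, 85 were bright in both arrays, as were 29 of the 34.

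**Figure D1:**
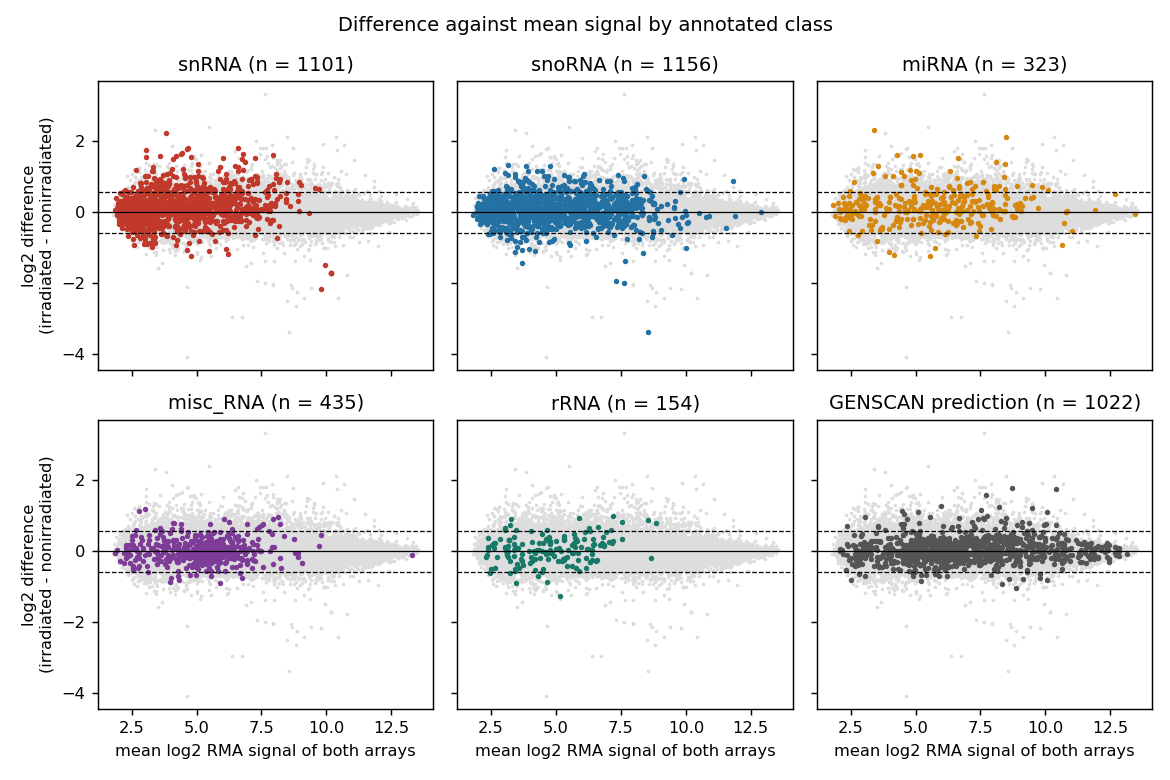
Each panel plots the log2 difference (irradiated minus nonirradiated) against the mean log2 RMA signal of both arrays for 1 annotated class in colour, over all main clusters in grey, with dashed lines at 1.5-fold. The snRNA and snoRNA points crowd the dim left side, and the few deep negative points among the bright ones are the 191-base snRNAs and snoRNAs such as the one in Rpl27a, at -3.36.

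Among the snRNAs, copies of a single 191-base record read lower in the irradiated array while most other bright snRNA clusters read higher. ENSMUST00000082922 is placed at 5 loci. At Gm25360 (chr1:72226240-72226430) it read 10.89 without and 8.73 with irradiation, 4.47-fold lower. At Gm23472, Gm24497 and Gm25939 on chromosome 1 and Gm23444 on chromosome 11 it read 11.03 and 9.33, 3.26-fold lower, with values identical to the last digit, so those 4 loci are 1 reading. Gm25813 on chromosome 8, a separate record of the same length, read 10.68 and 9.19, 2.80-fold lower.

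The array holds 9 snRNA clusters of 191 bases, and all 9 were lower in the irradiated array. Those with the identical values given above are a single reading, so the 9 are not separate observations. The 3 dim ones were Gm26108, at 5.40 and 4.17, Gm25202, at 2.69 and 2.23, and Gm22973, at 3.14 and 2.82. Every one of the 9 has probes that can match other transcripts, and 8 of the 9 rest on 5 or 6 probes. The 9 other snRNA clusters between 189 and 200 bases were dim, and their differences lay between -0.23 and 0.70, with 7 above 0. Length was picked out after the values were seen. Whether the 9 share probes was not tested.

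The remaining 1092 snRNA clusters had a median difference of 0.13. Of them 169 were at least 1.5-fold higher (15.5%, against 3.21% of all main clusters) and 39 lower (3.57%, against 1.5%). Bright in both arrays were 80 of them, where the median was 0.19, with 17 higher (21.25%) and 2 lower (2.5%). Among those bright in at least 1 array, the highest were single loci on several chromosomes, and 4 of the 5 named here were bright in the irradiated array only, where they could only be higher. ENSMUST00000158220, inside Zswim5 (chr4:116904637-116904741), went from 5.68 to 7.50 between the nonirradiated and the irradiated array, 3.53-fold. ENSMUST00000158490 (chr6:118834900-118835000) went from 5.98 to 7.62 on 4 probes, 3.11-fold. Gm23422, inside the sperm axoneme gene Spag16 (chr1:70596815-70596921), went from 7.15 to 8.75, 3.05-fold, and was the one bright in both arrays. ENSMUST00000158937 (chr5:9169063-9169229) started at 6.47 and was 2.88-fold higher in the irradiated array, on 20 probes coded as unique. Gm23169, inside Ncoa2, a coactivator of nuclear receptors (chr1:13334498-13334609), went from 6.01 to 7.52, 2.84-fold. Zswim5, Spag16 and Ncoa2 themselves differed by -0.11, -0.37 and -0.05.

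Among the snoRNA clusters a small set of bright ones inside symbol-bearing genes was far lower in the irradiated array. The class median difference was 0.08, with 98 at least 1.5-fold higher (8.48%, against 3.21% of all main clusters) and 43 lower (3.72%, against 1.5%). The deepest difference of all 4255 clusters was ENSMUST00000104387 (chr7:109521280-109521409, plus strand, 130 bases), which RefSeq lists as LOC115485611 within Rpl27a, a protein of the large ribosomal subunit. It read 10.24 without and 6.88 with irradiation, 10.3-fold lower, while the cluster of Rpl27a read 7.43 and 7.47. The 12 probes of the snoRNA cluster can match more than 1 transcript. Whether the Rpl27a cluster reads the whole transcript of that gene was not tested.

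Gm26175, within the Golgi protein gene Tmf1 (chr6:97162817-97162947), read 8.62 and 6.64, 3.95-fold lower. Gm24313, within Tbrg4, a mitochondrial RNA-binding protein (chr11:6619808-6619940), read 8.28 and 6.34, 3.84-fold lower, on 23 probes coded as unique. Gm25820, within 2810403A07Rik (chr3:88693930-88694057), read 8.33 and 6.95, 2.60-fold lower. Gm26493, within Cnot1, the scaffold of a deadenylase complex (chr8:95746060-95746195), read 8.94 and 7.79, 2.21-fold lower, with 15 probes coded as unique. Their genes read 10.27 and 10.44 for Tmf1, 8.43 and 8.50 for Tbrg4, 9.67 and 9.90 for 2810403A07Rik, and 11.68 and 11.61 for Cnot1. The signal of the snoRNA cluster was thus lower in the irradiated array while the gene around it differed by at most 0.23.

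These 5 were the only bright snoRNA clusters at least 2-fold lower, and all 5 lie inside a gene on the same strand. Those in Tmf1 and Tbrg4 were bright in the nonirradiated array only, a choice that favours lower readings. Among the 74 same-strand snoRNA clusters bright in both arrays, 3 were at least 2-fold lower. Of the 87 bright in at least 1 array inside a same-strand gene, 10 were at least 1.5-fold higher and 10 lower, and the median difference was -0.08. The 10 higher ones included the cluster LOC115489602 within Eng, which encodes the endothelial TGF-β co-receptor endoglin (chr2:32675109-32675245). It went from 11.38 to 12.27, 1.86-fold, while Eng went from 12.18 to 12.37. Gm22334 within Trpc4ap went from 7.09 to 8.05, 1.94-fold. Within Rpl4, another large-subunit gene, 4 snoRNA clusters differed by -0.44, 0.32, 0.67 and 0.84, so snoRNAs of 1 gene did not move together. The brightest snoRNA cluster, LOC115487043 within the mitochondrial import receptor gene Tomm20, read 12.91 in both arrays.

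On chromosome X a block of repeated snoRNA loci read slightly higher in the irradiated array. ENSMUST00000179357 is placed at 12 loci with 1 reading, 6.92 without and 7.34 with irradiation, and ENSMUST00000178132 at 6 loci with 6.93 and 7.33. ENSMUST00000180240, at 4 loci, had differences of 0.27 to 0.35. All 22 loci lie between chrX:147747697 and chrX:150034233 on the minus strand and none reached 1.5-fold, so a block that counts as 22 clusters holds 5 distinct readings.

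The microRNA clusters had the highest median difference of the larger classes, at 0.16. Of the 323, 52 were at least 1.5-fold higher (16.1%) and 9 lower (2.79%), against 3.21% and 1.5% of all main clusters. Among the 84 bright in both arrays 17 were higher and 2 lower. ENSMUST00000104668 (chr1:19921310-19921399) went from 7.42 to 9.54, 4.35-fold, the largest upward difference of the 1013 bright clusters, on 5 probes that can match elsewhere. ENSMUST00000103907, inside Sfmbt2 (chr2:10509584-10509687), went from 5.86 to 7.38, 2.86-fold. ENSMUST00000104819 (chr2:93898042-93898133) went from 7.39 to 8.81, 2.68-fold, on 4 probes. The brightest, ENSMUST00000158588 inside Zfp791, read 13.49 and 13.45 and did not move with the class. All 4 have probes that can match other transcripts.

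Sfmbt2, a Polycomb-group gene, is known in mouse for a large microRNA cluster in one of its introns, and 35 of the 323 microRNA clusters lie in it. Their differences ran from -0.46 to 1.61 with a median of 0.19, and 25 of the 35 were above 0. At least 1.5-fold higher were 4 (11.4%, against 16.1% of all microRNA clusters and 3.21% of all main clusters), and none were lower. Of the 35, 31 have probes that can match elsewhere and 7 were bright. Among the bright ones are the 5 loci of ENSMUST00000179699, which hold 3 distinct readings, so the 35 are not separate observations. Sfmbt2 itself read 6.01 and 5.88. Both ends of the range were dim clusters. The lowest read 4.21 and 3.75 on 8 probes and the highest 4.37 and 5.99 on 11 probes. Both nonirradiated values lay below the antigenomic median of 4.77.

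The ribosomal RNA loci, most of them scattered copies about the length of a 5S gene, were mostly dim. Their median difference was 0.06, with 14 of 154 at least 1.5-fold higher (9.09%, against 3.21% of all main clusters) and 7 lower (4.55%, against 1.5%). Of the 16 bright ones 15 were above 0 and 6 were at least 1.5-fold higher, but only 8 of the 16 were bright in both arrays. ENSMUST00000157169, inside the proteasome gene Psmd14, went from 6.72 to 7.71, 1.99-fold. ENSMUST00000158752, inside the heparanase-like gene Hpse2, went from 8.08 to 8.98, 1.86-fold, and ENSMUST00000157123, inside Klhl5, from 7.13 to 7.96, 1.77-fold. The brightest, ENSMUST00000157746 inside Agap1, which encodes an Arf GTPase-activating protein, went from 8.45 to 9.25, 1.75-fold. None of these 4 genes reached 1.5-fold itself.

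Miscellaneous RNA clusters had a median difference of 0.00. Of the 435, 23 were at least 1.5-fold higher (5.29%, against 3.21% of all main clusters) and 10 lower (2.30%, against 1.5%). ENSMUST00000157831 (chr14:21263624-21263859) went from 7.66 to 8.63, 1.97-fold. ENSMUST00000122762, inside the core-binding factor gene Cbfb, went from 7.50 to 8.40, 1.87-fold, and ENSMUST00000157637, inside the centrosomal gene Cep68, from 7.17 to 7.94, 1.70-fold. All 3 rest on probes coded as unique. The brightest, ENSMUST00000083977 on chromosome 15, read 13.37 and 13.26. None of the 43 lincRNA clusters reached 1.5-fold in either direction, and their median difference was 0.06. The most different bright lincRNA cluster, ENSMUST00000181676 on chromosome 13, read 6.54 and 7.01, a difference of 0.47. ENSMUST00000180964 read 6.61 and 6.99, and the brightest, ENSMUST00000181959, read 7.63 and 7.82.

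**Figure D2:**
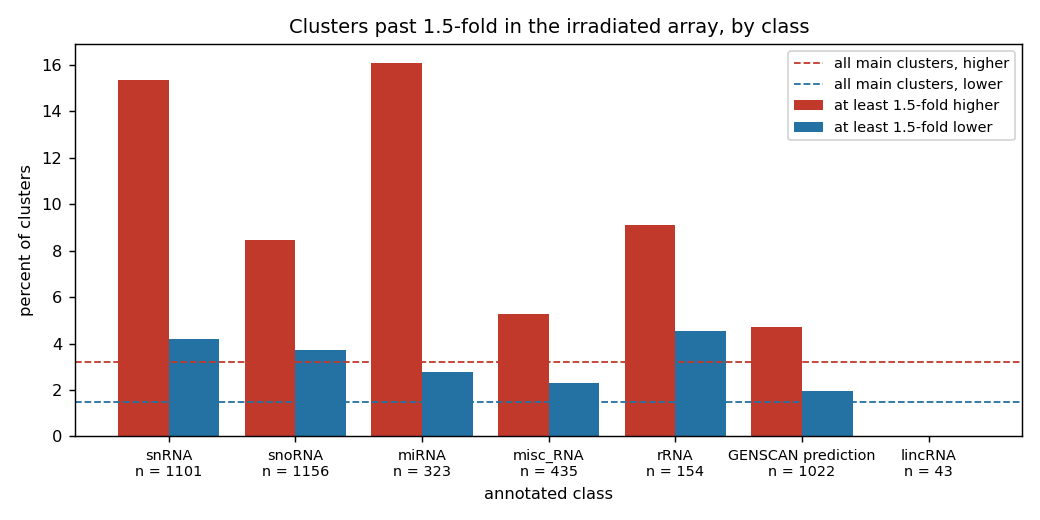
Bars give the percent of each annotated class at least 1.5-fold higher (red) or lower (blue) in the irradiated array, and dashed lines give the same over all main clusters, 3.21% and 1.5%. The snRNA bar at 15.3% and the microRNA bar at 16.1% are the tallest, and the lincRNA class has no bar.

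The GENSCAN predictions divide by what lies beneath them. Immunoglobulin segments are the gene pieces that B cells join to make antibody genes, and plasma cells transcribe the joined genes at a high level. Of the 4255 clusters, 122 overlap a RefSeq immunoglobulin segment by at least 50% of the shorter of cluster and segment, 117 of them GENSCAN predictions. Of the 122, 107 were above 0 and 31 were at least 1.5-fold higher (25.4%), where 3.21% of all main clusters were, and 3 were lower. Their median signal was 7.57 without and 8.01 with irradiation, and the median difference was 0.30. The 867 predictions over no antigen receptor segment had a median difference of -0.01, with 13 at least 1.5-fold higher and 16 lower (1.85%), against 3.21% and 1.5% of all main clusters. In bulk tissue, fewer cells of a type and less RNA per cell cannot be told apart, nor can their opposites.

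The heavy-chain and kappa variable segments both leaned upward. Of 65 Ighv clusters 56 were above 0, 12 were at least 1.5-fold higher and 2 lower, with a median difference of 0.28. Of 51 Igkv clusters 46 were above 0, 18 were higher and 1 lower, with a median of 0.42. The single Iglv cluster went from 9.52 to 10.62. The 4 D segments had a median difference of 0.10, and Ighd5-8, the most different of the bright ones, read 7.72 and 7.87.

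The largest differences were at Igkv14-111 (chr6:68256404-68256869), which went from 7.81 to 9.61, 3.47-fold, and at Ighv11-2 (chr12:114048241-114048704), which went from 9.53 to 11.28, 3.36-fold. Igkv12-38 (chr6:69943186-69943648) went from 6.93 to 8.50, 2.98-fold. The cluster over Ighv1-83 went from 7.93 to 8.98, 2.07-fold. The 2 kappa clusters rest on probes coded as unique and the 2 heavy-chain clusters do not. Variable segments are close relatives, so a reading may hold RNA of several: the median was 0.29 in the 46 immunoglobulin clusters coded as unique and 0.34 in the other 76. Among the 83 bright in the nonirradiated array, a choice that does not favour higher readings, 78 were above 0 and 25 were at least 1.5-fold higher. On the same arrays 38 of 40 immunoglobulin segment clusters that do carry a symbol were above 0, with a median of 0.56.

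The T cell receptor segments had a smaller median difference, and whether it differs from that of the immunoglobulin segments was not tested. Of 39 such clusters 25 were above 0, 5 were at least 1.5-fold higher and 1 lower, with a median difference of 0.15. Of the 12 bright in the nonirradiated array 7 were above 0 and none reached 1.5-fold in either direction. No member carries a T cell receptor biotype, so these were found by overlap alone. The 1 cluster annotated as an immunoglobulin J segment is counted among the 39, since it overlaps a T cell receptor gamma segment. Its difference was 0.10. The brightest prediction of all, GENSCAN00000012411 on chromosome 13, read 13.18 and 13.11. Outside the classes above, a pseudogene inside Fbxw11, a ubiquitin ligase adaptor, read 11.42 and 11.90, while Fbxw11 read 10.38 and 10.17. ENSMUST00000179168 on chromosome 9, the brightest of the remaining biotypes, read 12.95 and 12.96.

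**Figure D3:**
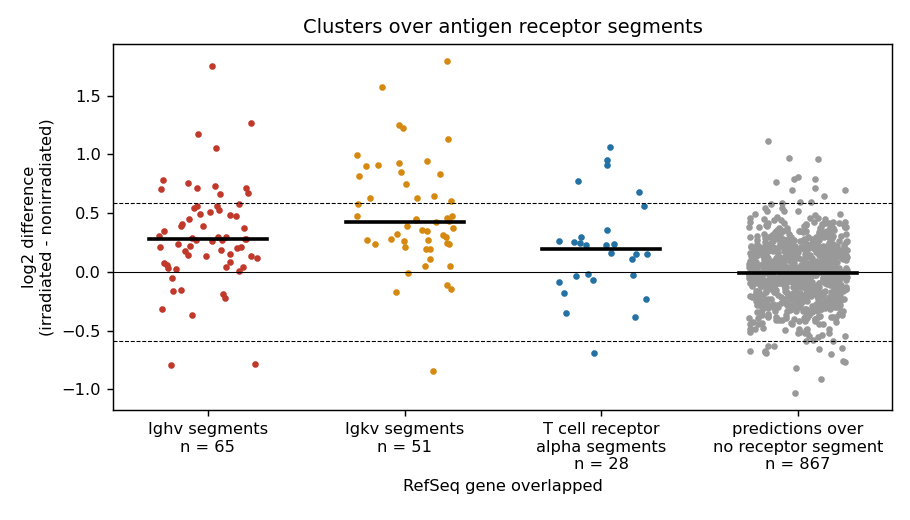
Each point is 1 cluster, placed by the RefSeq segment it overlaps, with its log2 difference (irradiated minus nonirradiated) on the vertical axis, a black bar at the group median and dashed lines at 1.5-fold; sideways spread is only for legibility. Ighv and Igkv clusters sit mostly above 0, with medians of 0.28 and 0.42, and the 867 other predictions centre on -0.01.

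Small RNA clusters inside a gene on the same strand held a larger share at least 1.5-fold higher than those elsewhere. The share lower was larger there for snoRNAs but not for the other small RNAs. A symbol-bearing cluster on the same strand contains 529 of the 4255, of which 493 are small RNAs. Of these 493, 19.1% were at least 1.5-fold higher and 4.67% lower, with a median difference of 0.18. Of the 2676 other small RNA clusters 9.79% were higher and 3.44% lower, with a median of 0.08. Of the 172 snoRNA clusters in a same-strand gene 26 were higher (15.1%) and 12 lower (6.98%). Among the 842 with no gene on either strand 7.60% were higher and 30 lower (3.56%). The share of snoRNA clusters above 0 was 52.9% inside such genes and 57.7% with no gene. Among snoRNA clusters bright in both arrays, the 74 inside such genes had a median difference of -0.09, with 7 higher and 8 lower, and the 99 with no gene had a median of 0.14, with 4 higher and 3 lower. Of the 321 clusters of other small RNAs in a same-strand gene 68 were higher (21.2%) and 11 lower (3.43%). Among 1434 with no gene on either strand 11.2% were higher and 3.70% lower. In the 63 of these 321 that were bright in both arrays 23 were higher and 1 lower, with a median difference of 0.42. The 133 bright in both arrays with no gene on either strand had a median of 0.09, with 20 higher and 9 lower. Of those 9, 6 were at least 2-fold lower. These 6 are the bright 191-base snRNA clusters, of which 4 are 1 reading, and they also count in the 3.70% lower.

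The share was larger where the gene around the cluster read brighter. Where the enclosing gene read under 7 on average, 5.98% of the small RNA clusters other than snoRNAs were at least 1.5-fold higher. Where it read from 7 to 9 the share was 26.7%, and at 9 or more it was 32.2%. The median signal of the clusters themselves rose over the same steps, at 4.74, 5.85 and 6.47. Whether the share follows the gene's signal or the cluster's own was not tested. Of the 117 clusters in genes under 7, 35 lie in Sfmbt2. The genes themselves hardly differed between the arrays. In 131 pairs the cluster was bright in both arrays and its gene was bright. No gene of these reached 1.5-fold, and Pearson's r between the differences over the 131 pairs was 0.05. For the 66 snoRNA pairs the cluster median was -0.10 and the gene median -0.04, and for the 54 pairs of other small RNAs they were 0.46 and -0.01. Pairs share both arrays, and some share a gene.

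Intron control rows read higher in the irradiated array. Over 5331 such rows the median difference was 0.27, and 26.5% were at least 1.5-fold higher and 5.55% lower. Among the 1761 bright in both arrays 20.6% were higher and 0.965% lower. Exon control rows (1352) had a median of -0.08, with 3.85% higher and 6.36% lower, and the 23 antigenomic background rows had a median of -0.21. The intron rows rest on a median of 4 probes where the 4255 clusters rest on 12. The part of intron signal in the differences of the small RNA clusters was not tested.

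**Figure D4:**
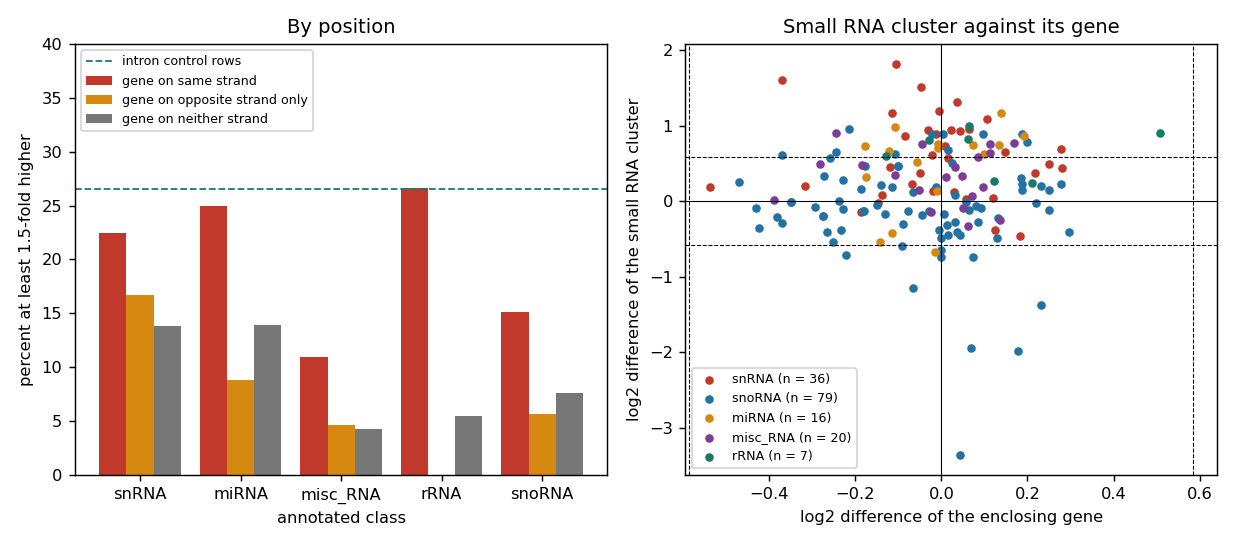
The left panel gives the percent of clusters at least 1.5-fold higher in each small RNA class by whether a gene encloses them on the same strand (red), only on the opposite strand (orange) or on neither (grey), with the intron control rows as a dashed line at 26.5%. The right panel plots the log2 difference of each small RNA cluster against that of its enclosing gene where both were bright in at least 1 array, with dashed lines at 1.5-fold; the clusters spread from -3.36 upward while no gene passes a dashed line.

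The share of clusters past 1.5-fold was smaller with more probes. Of the 722 clusters with 8 or fewer probes 15.1% were at least 1.5-fold higher, against 10.9% with 9 to 12, 8.07% with 13 to 18 and 4.90% with 19 or more. The same shares among other main clusters were 10.8%, 7.59%, 3.48% and 1.21%, so the symbol-less Ensembl clusters were above the others in every probe bin, and both declined with more probes. By mean signal the share showed no trend and lay between 7.43% and 11.9% in all 6 bins, while in other main clusters it was 4.91% under a signal of 4 and 1.42% at 8 or more.

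**Figure D5:**
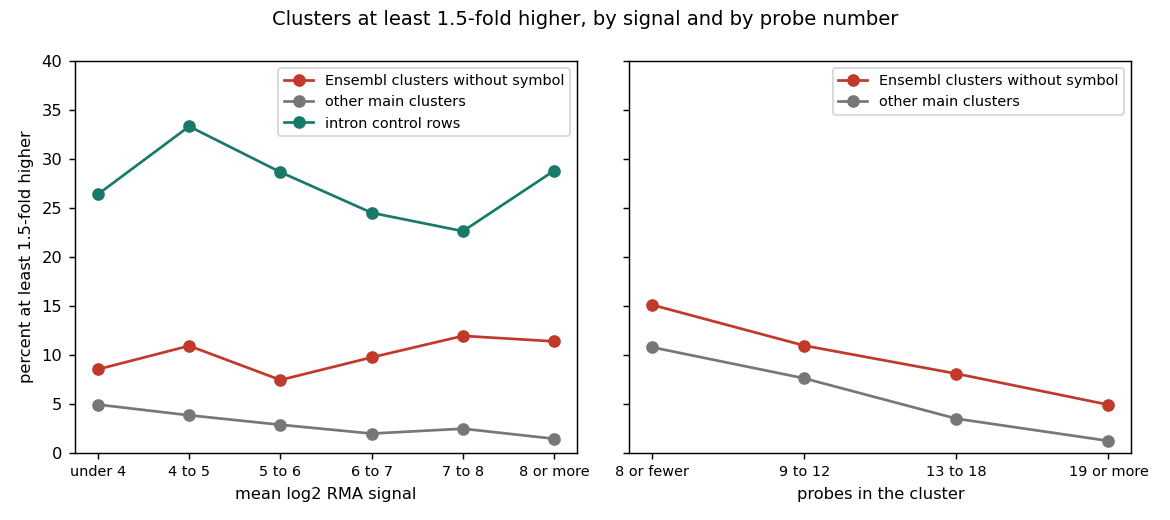
Lines join the percent of clusters at least 1.5-fold higher in the irradiated array by mean log2 RMA signal (left) and by number of probes (right), for the Ensembl clusters without a symbol, the other main clusters and, on the left, the intron control rows. The Ensembl line lies above the other main clusters in every bin and falls from 15.1% to 4.90% with probe number.

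Clusters with probes that can match more than 1 transcript made up 2133 of the 4255, against 14.7% of all main clusters. Of these 10.6% were at least 1.5-fold higher and 3.56% lower, and of the 2122 coded as unique 8.39% and 2.83%. In other main clusters the shares higher were 5.67% and 1.95%. Identical values in both arrays were shared by 149 clusters in 56 groups, 141 of them with such probes, so the 4255 clusters hold 4162 distinct pairs of values. Of 98 records placed at more than 1 locus, 70 had at least 2 different readings. For these 70 the pooled standard deviation of the difference between loci of 1 record was 0.357, with identical readings counted once. Over all 4255 clusters it was 0.403. Records whose loci agreed were left out of the first value, so the 2 values cannot show how alike loci of 1 record are. On chromosome Y, 70 clusters had a median difference of -0.04, with 1 higher and 3 lower.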

How the data were processed

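Lung RNA (300 ng, biotin-labelled) of 2 samples was hybridised to 1 array each. Per the submitters' processing notes, the authors used Affymetrix Expression Console 1.3.1, and the deposited values are RMA signals on the log2 scale. RMA places both arrays on a common distribution, so a shift shared by most clusters cannot be seen. Coordinates are those of the deposited annotation (GRCm38).

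Clusters, classes and lists were chosen with earlier results of these data known. The 10 bright clusters most different in each direction were named, with up to 3 of the most different bright clusters and the brightest of each class with at least 10; no bright cluster past 2-fold lay in a gene past 1.5-fold. Gm26493 and other snoRNAs of Rpl4, Eng and Trpc4ap, the dim 191-base snRNAs, the chromosome X repeats, the Iglv cluster, the Sfmbt2 group and the clusters with sequences were added after their values were seen. Receptor segments were taken as an overlap with a RefSeq segment of at least 50% of the shorter of the 2, a rule also added then. The enclosing gene was the smallest main cluster with 1 symbol containing the locus. Counts were made in Python 3.11.15 with pandas 2.3.3 and tested on simulated data. Array number limits precision. No family names were assigned to snRNA or snoRNA loci. Alternatives changed centring, intensity trend (lowess span 0.3), brightness, probe code, probe number, overlap, fold limit and the chromosomes kept. A further alternative read the same signals from the deposited series values.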

Additional observations from a re-analysis of the deposited data

How the results depend on the processing

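No paired analysis was possible because each group has 1 array and the result comes from no test. The direction held under every alternative run: more clusters were higher than lower and the median difference stayed above 0. Of 50 recomputed summary values, 33 stayed close to the reported one. The other values follow, and counts fall by construction where fewer clusters are kept. At 2-fold 96 were higher and 28 lower. Among the 1006 clusters bright in at least 1 array, here against the main-cluster medians of 6.85 and 6.89, 128 were higher and 34 lower, 62.7% were above 0 and the median difference was 0.11. Among the 857 bright in both, 84 were higher and 28 lower, 61.6% were above 0 and the median difference was 0.090. With probes coded as unique (2122 clusters) 178 were higher and 60 lower, and with at least 10 probes (3082) 249 and 72. Centring each array on its median over main clusters shifted every difference by -0.03, leaving 54.2% above 0, a median difference of 0.041 and 353 higher against 161 lower. Removing the intensity trend gave a median difference of 0.050. Of 82 recomputed class medians 15 moved beyond the interval of the reported one and 4 fell below 0, which were miscellaneous RNA at -0.03 under centring and under trend removal, and the predictions at -0.02 under centring and -0.01 without receptor segments. Alternatives chosen after seeing the data counted 402 higher and 133 lower with 1 cluster per pair of values, 311 and 113 without clusters inside a same-strand gene, and 369 and 132 without receptor segments. Dim signal limits most of these clusters, and 1 array per group limits all of them.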

Other observations

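Of the 4255 clusters 101 read the same in both arrays to within 1e-09 on the log2 scale (2.37%), as did 635 of all main clusters (1.88%). GENSCAN predictions over a RefSeq pseudogene (427 clusters) had a median difference of -0.02, with 6 at least 1.5-fold higher and 8 lower, and those over a RefSeq protein-coding gene only (248) had a median of 0.00, with 4 higher and 3 lower. Among snRNA clusters of 100 to 109 bases, the most common length range, 95 of 571 were at least 1.5-fold higher (16.6%) and 21 lower (3.68%). The shares over all main clusters were 3.21% and 1.5%. Leaving out the microRNA clusters within Sfmbt2, the other 45 microRNA clusters in a same-strand gene had a median difference of 0.31, with 16 higher and 3 lower. The cluster GENSCAN00000019044 is placed at 23 loci of chromosome 10 with 23 different readings, whose differences ran from -0.76 to 0.49.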
